A study of Mus musculus with 12 samples.

Results

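RNA of fully malignant hepatocellular carcinoma (HCC) was set against RNA of normal hepatocytes, with 3 arrays in each group, 6 of the 12 arrays of the study. Arrays were chosen by the cell type in their labels. The HCC arrays held freshly isolated tumour cells from male B6 mice in which cancer had been induced by injection of DEN (diethylnitrosamine), a carcinogen that liver enzymes convert into a DNA-alkylating agent. The normal arrays held freshly isolated hepatocytes from age-matched B6 males; the sources used here give no treatment for them and do not say how tumour cells were separated from the other cells of a tumour. Nor is it stated that each replicate is another animal. The p-values below therefore reflect only the scatter among arrays, which may be technical. The other 6 arrays, of premalignant hepatocytes on a second chip, entered the normalization and the estimate of spread only. HCC lay at positions 4 to 6 of the first chip and normal hepatocytes at positions 1 to 3, so group and position cannot be told apart.

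Hepatocytes make most plasma proteins, bile, urea and glucose, detoxify drugs, and are packed with mitochondria and peroxisomes. They rest against sinusoids whose endothelium has almost no basement membrane. HCC grows from hepatocytes that divide again, and a tumour also holds vessels, fibroblasts and immune cells.

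More of the array was detected in HCC, with 18108, 18754 and 19482 of 45281 probes in HCC, against 15354, 15552 and 16352 in normal hepatocytes. Means were 18781 ± 687 in HCC and 15753 ± 528 in normal hepatocytes (SD, n = 3 each), a difference of 3029 probes (exact permutation test, 2-sided, p = 0.1, the smallest that 3 against 3 allow). Signals were background corrected, quantile normalized and taken to log2, and the text gives these log2 intensities, in which values near 4 are background. Across genes, 2 arrays of HCC correlated at a Pearson r of 0.963 to 0.972, 2 arrays of normal hepatocytes at 0.979 to 0.985, and arrays of different groups at 0.868 to 0.908; genes are not independent replicates. The median SD of a gene was 0.26 among HCC arrays and 0.22 among normal arrays, on the log2 scale. No array stood apart over all genes.

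The 12 hepatocyte markers summed to a log2 intensity of 18.01 to 18.14 in HCC and 18.09 to 18.15 in normal hepatocytes, sums in which the brightest probes weigh most. Ttr, the gene of transthyretin, had 15.22, 15.34 and 15.29 in HCC, against 15.34, 15.30 and 15.16 in normal hepatocytes, with overlapping groups. Of these 12 markers 1 rose (8.33%) and 4 fell (33.3%), where 23.0% of all genes tested rose and 26.0% fell. The share of falls was thus not far from that of all genes. Ass1, a urea cycle enzyme gene, changed by -1.50 (SE 0.30) on the log2 scale, Cebpa, a hepatocyte transcription factor gene, by -1.07 (SE 0.33), Cps1, another urea cycle enzyme gene, by -0.94 (SE 0.23) and Hnf4a, a regulator of hepatocyte identity, by -0.61 (SE 0.20). The last change passed the threshold with all arrays and not without HCC replicate 2 (-0.52, adjusted p = 0.0773), normal hepatocytes replicate 1 (-0.50, adjusted p = 0.092) or normal hepatocytes replicate 2 (-0.60, adjusted p = 0.0571). Cebpa did not pass without HCC replicate 3 (-0.66, adjusted p = 0.0589) or normal hepatocytes replicate 3 (-0.93, adjusted p = 0.0605), nor with median scaling (-0.76, adjusted p = 0.0997). Alb, the albumin gene, was the marker that rose, with 10.42, 10.47 and 10.68 in HCC, against 8.61, 8.67 and 9.22 in normal hepatocytes, a change of 1.69 (SE 0.19). This is the only kept probe of a gene whose RNA is among the most abundant of liver, yet it was brighter than only 96.0% to 96.6% of all probes in HCC and 90.3% to 92.7% in normal hepatocytes. Its rise is given as a reading of that probe and not as the level of albumin RNA.

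Summed intensities of markers of endothelial cells, macrophages and stellate cells were higher in HCC. The counts of rises here are to be read against the 23.0% of all genes tested that rose. The 10 endothelial markers summed to 12.90 to 13.44 in HCC and 10.45 to 11.96 in normal hepatocytes, on the log2 scale, and 9 of the 10 rose. Macrophage markers summed to 10.55 to 11.45 in HCC and 8.68 to 9.58 in normal hepatocytes, with 5 of 9 higher, and Marco was not detected on any normal array. Stellate cell and fibroblast markers summed to 12.74 to 13.91 in HCC and 9.31 to 10.24 in normal hepatocytes, with 8 of 10 higher. Of these, Lrat, Col1a1, Col1a2, Pdgfrb and Rgs5 were not detected on any normal array and could not fall, so the count is only a description. The median log2 change of the stellate list was 1.28, or 0.70 at the lower bounds described below. Of 8 T and NK cell markers 4 stayed below the detection filter, and the 3 tested were detected on no normal array, so that no count of rises is drawn from them; their sum ran from 7.12 to 8.92 in HCC and from 5.91 to 6.0 in normal hepatocytes. In bulk RNA, fewer cells of a type and less RNA per cell cannot be told apart. How far these cells contribute to the gene groups below was not tested.

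Of 10641 genes tested with limma, 5218 changed at an adjusted p below 0.05 (49.0%). HCC was higher in 2451 genes (23.0%) and lower in 2767 (26.0%). In 5617 genes (52.8%), called or not, the HCC arrays did not overlap the normal arrays. Rises were larger than falls: 500 genes rose and 173 fell by at least 2 on the log2 scale, and 74 rose and 13 fell by at least 4. The median log2 change of all genes was -0.08, and its 5th and 95th percentiles were -1.31 and 1.95. The balance of rises and falls depended on the scaling. With median scaling in place of quantile normalization 3314 genes rose and 1369 fell, 70.8% of calls higher against 47.0% here, and the median of all genes moved by 0.26. It moved by 0.10 with cyclic loess and by 0.11 with the deposited normalized values, where 56.7% and 58.8% of calls were higher.

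**Figure D1:**
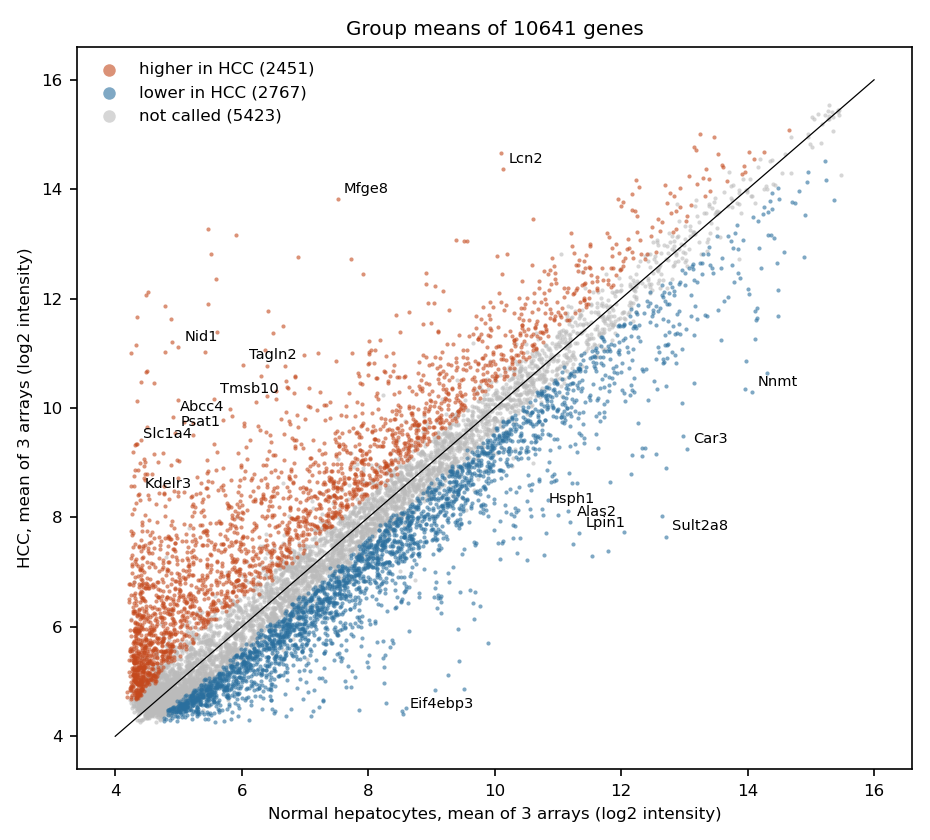
Mean log2 intensity of each of 10641 genes over 3 HCC arrays (vertical axis) and over 3 normal hepatocyte arrays (horizontal axis), with the line of equal levels. Orange points are the 2451 genes higher and blue points the 2767 genes lower in HCC; rises reach farther from the line than falls, above all among genes near background in normal hepatocytes.

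The 24 largest rises included Mfge8 and Slpi, both genes of secreted proteins. Mfge8, the gene of a secreted bridge between dying cells and integrins, had log2 intensities of 13.68, 13.75 and 14.05 in HCC, against 7.64, 7.63 and 7.28 in normal hepatocytes, a change of 6.31 (SE 0.29). It was bright on all HCC arrays and the groups were far apart. Slpi, an inhibitor of leukocyte proteases, had 11.85, 12.13 and 11.71 in HCC, against 5.15, 5.32 and 5.94 in normal hepatocytes. Its change was 6.43 (SE 0.35) on the log2 scale, and that of Wfdc15b, another gene of the WAP domain family, 6.30 (SE 0.49), with detection on 1 of 3 normal arrays. Esm1, which encodes endocan, a proteoglycan known from tumour endothelium, had 11.41, 11.43 and 12.07 in HCC, against 5.51, 4.82 and 4.29 in normal hepatocytes, and was detected on 1 normal array. Anxa2, a calcium-dependent membrane binding protein gene, changed by 5.88 (SE 0.29) and Golm1, a Golgi membrane protein gene known as a liver disease marker, by 5.61 (SE 0.26).

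Several of the largest rises started from no detected signal, so that their folds are lower bounds, taken against the lowest signal among detected probes of each normal array or the probe's own value where higher. Cpe, the gene of the prohormone-processing carboxypeptidase E, had 11.29, 11.02 and 10.79 in HCC, against 4.82, 4.8 and 4.74 in normal hepatocytes, at least 71.2-fold higher (adjusted p = 4.77e-08). Neurl1a, a ubiquitin ligase gene known from neurons, was at least 55.4-fold higher, Igdcc4, an immunoglobulin superfamily gene, at least 48.6-fold, and Elapor1, an endosome and lysosome protein gene, at least 38.3-fold. None of these 4 was detected on a normal array, and all were detected on every HCC array. Cbr3, a carbonyl reductase gene, differed among the HCC arrays, with 12.66, 12.18 and 9.36 in HCC, against 5.54, 5.89 and 5.40 in normal hepatocytes. Only genes without overlap could enter the largest rises, so its lack of overlap is no added result.

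The 24 largest falls included Eif4ebp3, Ppp1r3g and Lpin1. Eif4ebp3, an inhibitor gene of cap-dependent translation, had 4.45, 4.40 and 4.38 in HCC, against 7.84, 8.48 and 9.33 in normal hepatocytes. It was detected on no HCC array and was at least 15.4-fold lower (adjusted p = 6.06e-05). Ppp1r3g, a subunit that targets protein phosphatase 1 to glycogen, had 4.90, 5.56 and 5.68 in HCC, against 8.49, 11.65 and 8.19 in normal hepatocytes, with normal hepatocytes replicate 2 far above its group. Lpin1, a phosphatidate phosphatase gene, had 8.39, 7.58 and 7.18 in HCC, against 11.14, 11.07 and 11.80 in normal hepatocytes, and Cyp7b1, the gene of an oxysterol hydroxylase, 10.41, 11.23 and 9.40 in HCC, against 13.57, 13.95 and 14.34 in normal hepatocytes. Log2 changes were -3.62 (SE 0.72) for Lpin1 and -3.61 (SE 0.41) for Cyp7b1. Mt2, a metallothionein gene, changed by -3.47 (SE 0.39) and Saa1, an acute-phase gene whose probe may read copies, by -3.66 (SE 0.52). Saa1 was higher on HCC replicate 3 (12.20) than on HCC replicates 1 and 2 (9.92 and 9.81). Moxd1, a monooxygenase-like gene, fell by 4.09 (adjusted p = 0.0159), a value that normal hepatocytes replicate 1 (5.25) holds down against replicates 2 and 3 (10.90 and 9.67). Without normal hepatocytes replicate 2 the Moxd1 change was -2.94 (adjusted p = 0.0728) and without replicate 3 of that group -3.56 (adjusted p = 0.0586), neither past the threshold.

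Glucose-6-phosphatase, encoded by G6pc, makes the last step of glucose release by liver. G6pc had log2 intensities of 9.19, 10.38 and 8.89 in HCC, against 13.26, 13.44 and 12.23 in normal hepatocytes. Every normal array was above every HCC array, which the rule for the largest falls required. Its promoter is shown because TATA boxes were more frequent before genes that fell far: TATAAA, on either strand, stood in 18.1% of 160 promoter windows of genes lower by at least 2 on the log2 scale, in 9.70% of 495 windows of genes higher by at least 2, in 8.10% of 11032 windows of all tested genes and in 13.6% of all 32851 windows in the table. The ETS site CCGGAAG, which does not overlap it, went the other way. It stood in 3.75% of windows of the genes lower by at least 2 and in 7.07% of those higher by at least 2. Its shares were 16.7% of all tested and 8.86% of all windows. Over all 2878 windows of genes called lower, TATAAA stood in 8.58% and the ETS site in 19.1%. Neither contrast was thus seen in the falls as a whole. The motifs were picked from a wider set that was counted, and G6pc is itself among the genes lower by at least 2. Median counts of CpG were 8.5 in genes lower by at least 2, 13 in genes higher by at least 2 and 19 in all tested genes, so that base composition differed along with the motifs. The windows are RefSeq's of GRCm38.p6, 250 bases before to 50 after a start, found for 8624 tested genes. A match is a match of letters, not a proven site. Capitals mark the TATA box.
G6pc (chr11:101367466-101367765, plus strand): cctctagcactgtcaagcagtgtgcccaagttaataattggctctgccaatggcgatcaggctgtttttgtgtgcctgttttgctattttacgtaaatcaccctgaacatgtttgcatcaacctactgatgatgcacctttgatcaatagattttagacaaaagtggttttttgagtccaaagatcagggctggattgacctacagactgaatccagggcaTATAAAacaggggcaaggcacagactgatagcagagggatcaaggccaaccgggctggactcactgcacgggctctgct

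The genes were also read in 46 lists of 1322 entries by role, of which 1042 entries passed the detection filter, 188 did not and 92 had no probe with that gene name. In 28 lists more members rose than fell and in 18 more fell. No member fell in 6 lists, and no member rose in 5. A member detected on no normal array could not fall, and a member detected on no HCC array could not rise. These counts are to be read against the 23.0% of all genes that rose and the 26.0% that fell. The sign of a list's median turned in 5 lists with median scaling, 3 with cyclic loess, 4 with the deposited normalized values and 1 without background correction. Their medians lay close to 0 here: they were the lists of ABC transporters, nuclear receptors, PI3K-AKT-mTOR, nucleotide synthesis, pentose phosphate, translation factors and Rab GTPases. Relative to the median of all genes, the sign turned in 2 lists with median scaling.

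**Figure D2:**
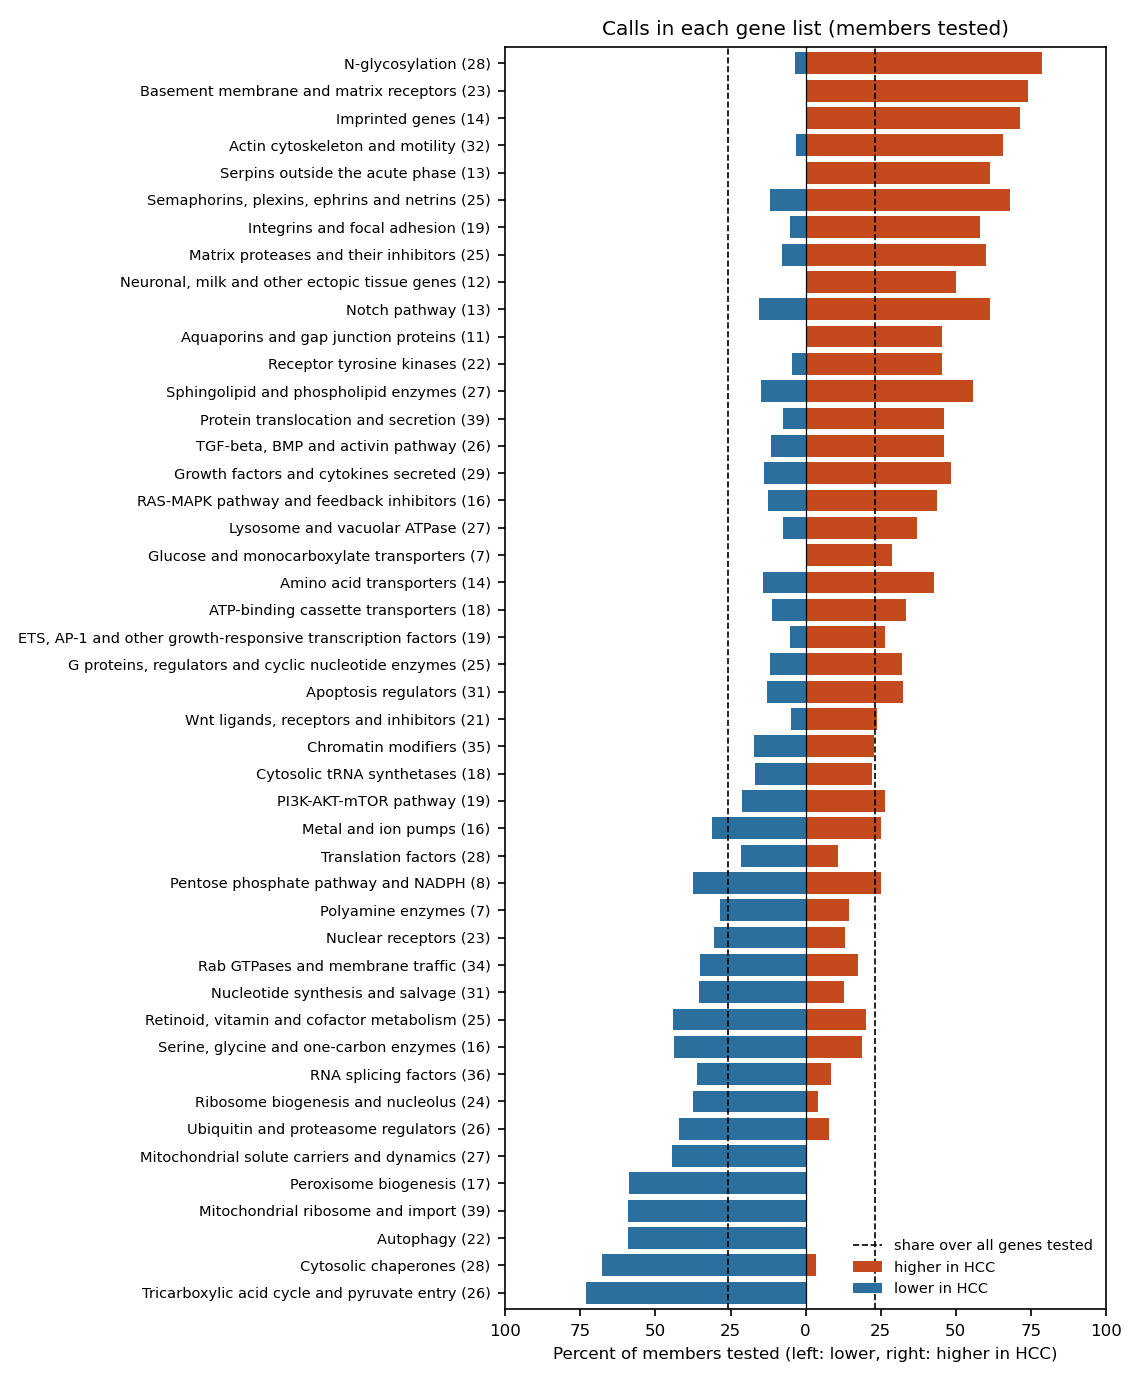
Share of the tested members of 46 gene lists that were higher (right, orange) or lower (left, blue) in HCC at an adjusted p below 0.05, with the number tested in parentheses. Dashed lines mark the shares over all genes, 23.0% higher and 26.0% lower; lists of surface, matrix and secretory genes lie at the top and mitochondrial, peroxisomal, autophagy and chaperone lists at the bottom.

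Basement membrane genes rose, led by the nidogen and collagen IV that make up its sheet. Of 23 members tested 17 rose and 0 fell, with a median log2 change of 1.42, or 1.35 where genes undetected in normal hepatocytes are held at their bound. Nid1, which encodes the linker nidogen 1, had 11.08, 10.70 and 11.57 in HCC, against 4.98, 5.43 and 4.57 in normal hepatocytes, where it was detected on 2 arrays. Col4a1, a collagen IV chain gene, had 9.80, 11.01 and 10.87 in HCC, against 7.41, 6.49 and 6.63 in normal hepatocytes, and its partner Col4a2 had 9.43, 10.37 and 9.98 in HCC, against 6.16, 7.15 and 6.79 in normal hepatocytes. HCC replicate 1 was lowest of the HCC arrays in both collagens and still above all normal arrays. Hspg2, the perlecan gene, changed by 3.36 (SE 0.30), and Col4a5 was at least 5.81-fold higher. Endothelial markers, whose cells also make these proteins, moved the same way, with a summed log2 intensity of 12.90 to 13.44 in HCC and 10.45 to 11.96 in normal hepatocytes, and their part in this result was not tested.

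Integrins, the receptors that bind matrix, and focal adhesion genes were read as 1 list, in which 11 genes rose and 1 fell of 19, with a median log2 change of 1.00. Itga3, whose product binds laminin, had 8.77, 9.22 and 9.63 in HCC, against 4.73, 6.04 and 6.06 in normal hepatocytes, detected on 2 normal arrays. Itga6, another laminin receptor gene, was at least 2.65-fold higher, while Itgb5 changed by 1.85 (SE 0.18) and Itga5, the fibronectin receptor chain gene, by 1.5 (SE 0.28). Genes that cut or protect matrix rose in 15 and fell in 2 of 25, with a median of 0.59, or 0.45 at the bounds. Timp3, a matrix-bound inhibitor gene, had 9.37, 9.97 and 10.06 in HCC, against 7.02, 6.64 and 6.21 in normal hepatocytes, and Mmp14, the membrane collagenase gene, had 10.21, 10.84 and 11.43 in HCC, against 7.93, 8.14 and 7.98 in normal hepatocytes. Both proteases and inhibitors were thus among the rises: Mmp13 was at least 3.98-fold higher, Mmp12 at least 3.35-fold and the inhibitor gene Timp2 at least 4.66-fold. Stellate cell and fibroblast markers, also higher in HCC, summed to 12.74 to 13.91 in HCC and 9.31 to 10.24 in normal hepatocytes, and their part was not tested.

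Actin genes formed a further group of rises. Of 32 genes of the actin cytoskeleton 21 rose and 1 fell, with a median log2 change of 1.22, or 1.11 at the bounds. Tagln2, an actin-bundling protein gene, had 10.59, 11.08 and 10.67 in HCC, against 5.66, 6.56 and 5.83 in normal hepatocytes, and the thymosin gene Tmsb10, whose product holds actin monomers, had 10.39, 10.10 and 10.01 in HCC, against 5.55, 5.66 and 5.45 in normal hepatocytes. In both genes the spread within a group was small beside the distance between the groups. Its relative Tmsb4x changed by 3.25 (SE 0.29), the tropomyosin gene Tpm1 by 2.38 (SE 0.18) and Coro1a, which is abundant in leukocytes, by 2.51 (SE 0.33). Lcp1, the leukocyte plastin gene, was the member that fell, by -1.07.

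Guidance cues, known from growing axons and vessels, rose in 17 and fell in 3 of 25 genes, with a median log2 change of 1.11, or 0.97 at the bounds. Robo1, the receptor gene for Slit proteins, had 9.98, 9.44 and 9.88 in HCC, against 6.65, 6.73 and 6.83 in normal hepatocytes, and the groups were well apart. Unc5b, a netrin receptor gene, changed by 3.17 (SE 0.43), with detection on 2 normal arrays. Plxnd1, a semaphorin receptor gene of endothelium, changed by 2.86 (SE 0.31) and Plxna2 by 2.42 (SE 0.30). Plxna1 (-1.41) and the ephrin gene Efna5 (-1.39) fell. The endothelial markers given above were higher too.

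**Figure D3:**
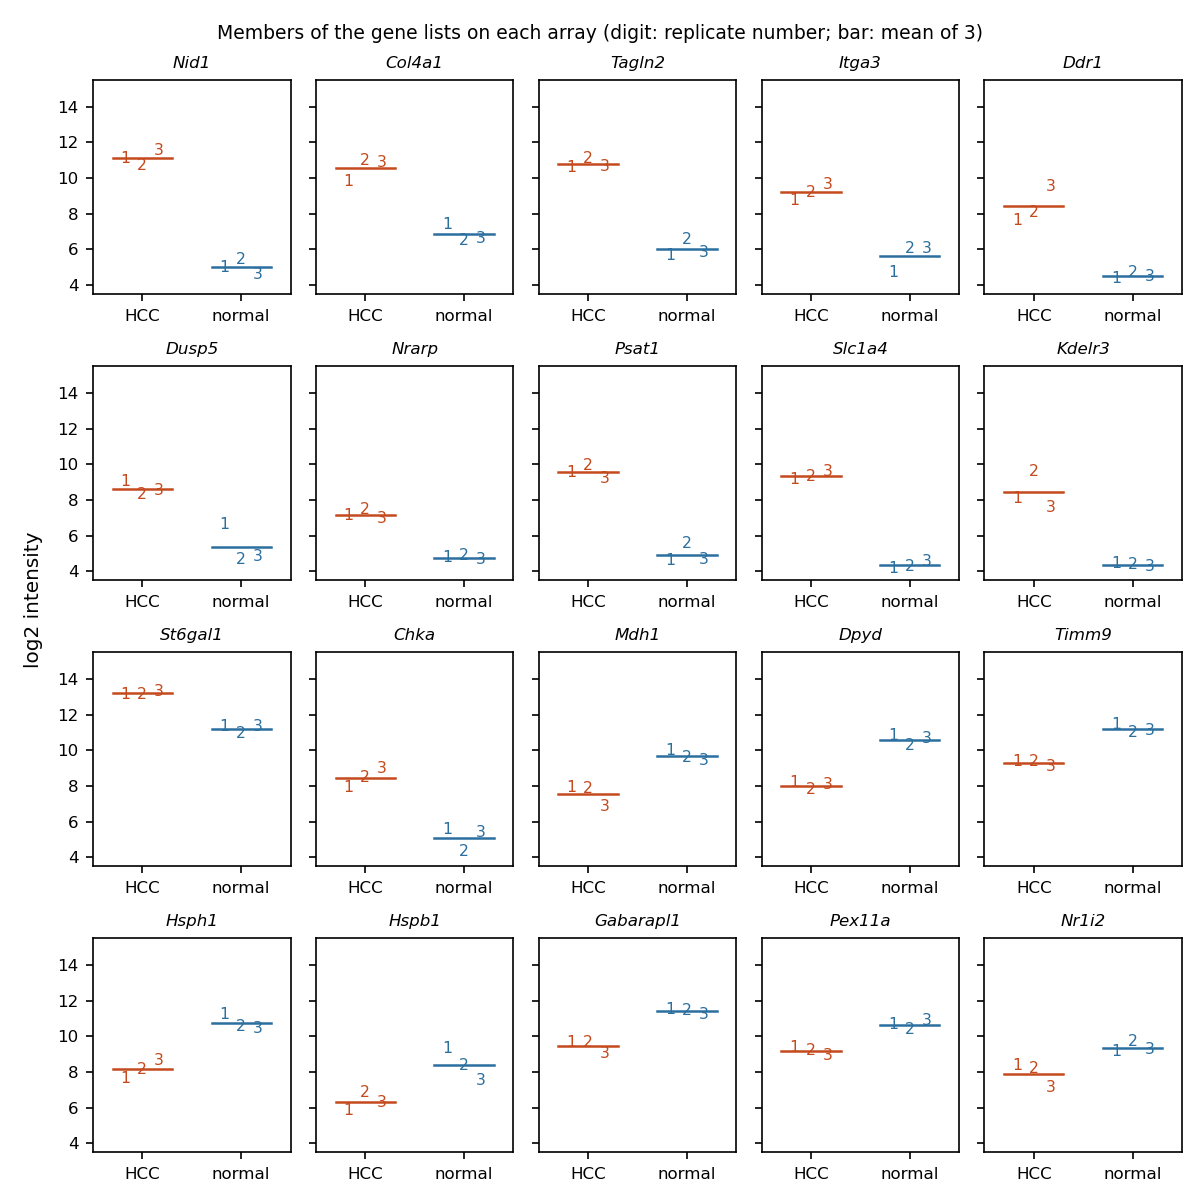
Log2 intensity of 20 list members on each array, HCC left and normal hepatocytes right; digits are replicate numbers and bars the mean of 3 arrays. The first 12 panels (Nid1 to Chka) show genes that rose and the last 8 (Mdh1 to Nr1i2) genes that fell, and in each panel the arrays of the groups do not overlap.

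Receptor tyrosine kinases rose in 10 and fell in 1 of 22, with a median log2 change of 0.69, or 0.47 at the bounds. Ddr1, whose product is a collagen receptor, had 7.64, 8.10 and 9.51 in HCC, against 4.35, 4.73 and 4.48 in normal hepatocytes, at least 11.6-fold higher, and HCC replicate 3 was highest. Fgfr2, a fibroblast growth factor receptor gene, had 11.94, 11.66 and 11.81 in HCC, against 9.05, 9.07 and 9.69 in normal hepatocytes, with tight groups. Flt1, a VEGF receptor gene of endothelium, changed by 2.30 (SE 0.28), and Axl, the gene of a receptor that binds Gas6, by 2.80 (SE 0.45). The member that fell was Egfr, the epidermal growth factor receptor gene, with 10.44, 9.82 and 12.25 in HCC, against 12.55, 12.46 and 13.02 in normal hepatocytes. HCC replicate 3 lay near the normal arrays in Egfr, and the change was -1.84 (SE 0.55) (adjusted p = 0.0155). The Egfr change did not pass without HCC replicate 1 (-1.64, adjusted p = 0.0531), HCC replicate 2 (-1.33, adjusted p = 0.0675) or normal hepatocytes replicate 3 (-1.67, adjusted p = 0.0518).

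The list of the RAS-MAPK pathway and its feedback inhibitors had 7 rises and 2 falls among 16 genes. Dusp6, the gene of an ERK phosphatase that ERK signalling induces, had 12.42, 12.15 and 12.26 in HCC, against 11.42, 10.52 and 10.73 in normal hepatocytes, a change of 1.38 (SE 0.23). Dusp5 changed by 3.28 (SE 0.41), with detection on 2 normal arrays, Dusp7 by 2.36 (SE 0.20) and Dusp4 by 1.91 (SE 0.38). Dusp1, an early-response phosphatase gene, went the other way with 9.83, 10.26 and 8.51 in HCC, against 10.49, 11.63 and 11.89 in normal hepatocytes, a change of -1.80 (SE 0.41). Of 19 genes listed for PI3K-AKT-mTOR 5 rose and 4 fell, shares near those of all genes. Among these falls was Pdk1 (-1.38), the gene of a pyruvate dehydrogenase kinase and not a member of that pathway. Its probes were called both ways. Sesn2, a stress-induced inhibitor gene of mTORC1, changed by 1.45 (SE 0.23), and Pik3cb, a catalytic subunit gene of PI3K, by -0.96 (SE 0.22). Sgk1, a kinase gene induced by steroids and osmotic stress, had 9.47, 12.07 and 9.59 in HCC, against 8.83, 8.88 and 8.22 in normal hepatocytes, with HCC replicate 2 highest. Its change of 1.73 (SE 0.54) was 0.89 without HCC replicate 2 and did not pass without normal hepatocytes replicate 3 (1.52, adjusted p = 0.0651).

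Notch pathway genes rose in 8 and fell in 2 of 13, with a median log2 change of 1.07, or 0.84 at the bounds. Hes1, a repressor gene that Notch induces, had 8.47, 8.28 and 8.0 in HCC, against 6.25, 5.20 and 6.30 in normal hepatocytes, and every HCC array was above every normal one. Nrarp, a feedback inhibitor gene of the pathway, was at least 4.92-fold higher, with 7.13, 7.45 and 6.94 in HCC, against 4.76, 4.87 and 4.63 in normal hepatocytes. Notch4, a receptor gene of endothelium, changed by 2.02 (SE 0.28), and Hes6, whose product opposes Hes1, by -1.35 (SE 0.25). Mfng, a glycosyltransferase gene that modifies Notch, was at least 2.36-fold higher. Endothelial markers moved with the list, as given above.

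TGF-beta and BMP genes rose in 12 and fell in 3 of 26. Tgfbr2, the type II receptor gene, had 12.12, 12.38 and 12.31 in HCC, against 9.36, 8.84 and 8.53 in normal hepatocytes, and Fst, the gene of the activin-binding protein follistatin, had 7.76, 9.08 and 8.44 in HCC, against 5.38, 5.39 and 5.08 in normal hepatocytes. Every HCC array was above every normal array in both genes. Bmp4, a ligand gene, changed by 2.14 (SE 0.38), the coreceptor gene Tgfbr3 by 1.79 (SE 0.15), and Id1, a BMP target, by 2.37 (SE 0.54), detected on 2 normal arrays. Wnt genes rose in 5 and fell in 1 of 21, near the share of all genes for rises. Fzd5, a receptor gene, changed by 2.20 (SE 0.35) and the ligand gene Wnt5a was at least 2.27-fold higher. Notum, which encodes an enzyme that inactivates Wnt proteins, changed by -1.26 (SE 0.34).

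G protein and cyclic nucleotide genes rose in 8 and fell in 3 of 25. Pde4b, a cyclic AMP phosphodiesterase gene, changed by 2.56 (SE 0.61) and the inhibitory G protein gene Gnai2 by 1.83 (SE 0.16). The largest fall in the list was that of Ghr, the growth hormone receptor gene, whose product is a cytokine receptor and not a G protein component. Ghr had 11.19, 10.18 and 11.07 in HCC, against 12.52, 12.65 and 12.83 in normal hepatocytes, all HCC arrays below all normal arrays. Secreted growth factors and cytokines rose in 14 and fell in 4 of 29. Igfbp1, an insulin-like growth factor binding protein gene of liver, had 12.61, 13.20 and 13.36 in HCC, against 9.86, 10.33 and 8.34 in normal hepatocytes, and Il1rn, the gene of the interleukin-1 receptor antagonist, changed by 3.19 (SE 0.34). Il33, an alarmin gene, was at least 5.91-fold higher. Angptl4, the gene of a lipoprotein lipase inhibitor, had 9.64, 9.84 and 7.89 in HCC, against 12.30, 12.34 and 12.36 in normal hepatocytes, tight in normal hepatocytes, and changed by -3.21 (SE 0.43).

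Imprinted genes, of which only the maternal or the paternal copy is active, rose in 10 and fell in 0 of 14, with a median log2 change of 1.38, or 1.10 at the bounds. A further 7 of 23 entries stayed below the detection filter. Members undetected in normal hepatocytes, such as Igf2, Mest and Dlk1, could not fall, so the count is given as a description. Igf2, the fetal growth factor gene, had 6.41, 13.19 and 6.80 in HCC, against 4.76, 4.35 and 4.29 in normal hepatocytes. Only HCC replicate 2 was bright, at 13.19, and the fold was at least 15.2-fold. The fitted change of Igf2 was 4.33 with all arrays and 2.14 without HCC replicate 2 (adjusted p = 0.000404), and its bound was 3.31-fold without that array, 34.7-fold without HCC replicate 1 and 30.3-fold without HCC replicate 3. Grb10, an inhibitor gene of insulin signalling, had 7.40, 8.61 and 8.13 in HCC, against 5.69, 5.96 and 5.88 in normal hepatocytes, without overlap. Phlda2, a growth-restricting placental gene, changed by 2.17 (SE 0.29), with detection on 2 normal arrays, and Mest was at least 3.41-fold higher. Dlk1, a Notch ligand relative of fetal liver, had 6.14, 8.61 and 4.61 in HCC, against 4.32, 4.52 and 4.35 in normal hepatocytes, again highest on HCC replicate 2. Its call depended on single arrays and on the processing. It did not pass without HCC replicate 2 (adjusted p = 0.0788) or without any 1 of normal hepatocytes replicates 1 to 3 (adjusted p = 0.0761, 0.0631 and 0.0701). Nor did it pass with cyclic loess (adjusted p = 0.054), the deposited normalized values (0.0791) or the mean of its probes (0.0621). Without background correction (0.0508) or detection filter (0.0844) it did not pass either. It passed with median scaling, array weights and the replicate block.

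Of 32 listed genes known from other tissues, such as nerve and mammary gland, 18 stayed below the detection filter and 12 were tested, of which 6 rose and 0 fell. Members undetected in normal hepatocytes could not fall, so the count is given as a description. Csn3, which encodes kappa-casein of milk, had 10.37, 13.10 and 9.55 in HCC, against 4.21, 4.23 and 4.30 in normal hepatocytes, at least 70-fold higher, a bound of 33.9-fold without HCC replicate 2 and 115.8-fold without HCC replicate 3. Tff3, a trefoil factor gene of intestinal goblet cells, had 10.97, 13.32 and 11.05 in HCC, against 4.57, 7.20 and 7.47 in normal hepatocytes, with detection on 2 normal arrays, and changed by 5.37 (SE 0.76). Both were highest on HCC replicate 2. Nrg1, a neuregulin growth factor gene, was at least 5.58-fold higher.

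Serine protease inhibitors outside the acute phase rose in 8 and fell in 0 of 13, with a median log2 change of 1.36. Serpinb6a, an intracellular inhibitor gene, had 10.79, 10.24 and 11.30 in HCC, against 7.16, 6.72 and 6.17 in normal hepatocytes. Serpinf2, the antiplasmin gene, changed by 1.63 (SE 0.18) and Serpina12, the vaspin gene, by 1.93 (SE 0.16) on the log2 scale. Probes of Serpina genes may read copies. Apoptosis genes rose in 10 and fell in 4 of 31. Tnfrsf21, a death receptor gene, had 9.83, 9.37 and 10.05 in HCC, against 5.76, 4.89 and 4.60 in normal hepatocytes, detected on 1 normal array, Apaf1, whose product forms the apoptosome, changed by 2.25 (SE 0.28) and Casp1, the inflammasome caspase gene, by 2.82 (SE 0.49), both detected on 2 normal arrays.

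In the nucleus, nuclear receptors rose in 3 and fell in 7 of 23, a share of falls close to that of all genes. Their median was -0.19 and turned to 0.01 with median scaling. The falls took in receptors that sense bile acids and drugs. Nr1i2, the pregnane X receptor gene, had 8.35, 8.21 and 7.17 in HCC, against 9.15, 9.70 and 9.29 in normal hepatocytes, Nr1h4, the bile acid receptor gene FXR, 10.28, 9.74 and 10.34 in HCC, against 11.34, 11.36 and 11.59 in normal hepatocytes, and Nr1i3, the constitutive androstane receptor gene, 7.42, 8.41 and 7.83 in HCC, against 9.09, 8.69 and 8.96 in normal hepatocytes. None of these 3 genes overlapped between groups. Growth-responsive transcription factor genes rose in 5 and fell in 1 of 19, with Klf6, a zinc finger factor gene, at 2.58 (SE 0.29) and Ets1, a factor gene of endothelium and lymphocytes, at 1.96 (SE 0.31).

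Chromatin genes rose in 8 and fell in 6 of 35, below the share of all genes for falls. Uhrf1, whose product brings the maintenance DNA methyltransferase to replicating DNA, had 8.03, 8.59 and 6.83 in HCC, against 4.95, 4.86 and 4.96 in normal hepatocytes, detected on 2 normal arrays. Its partner Dnmt1 changed by 0.90 (SE 0.22). Sirt1, the gene of a deacetylase that uses NAD, changed by -1.84 (SE 0.21) and Sirt3, the gene of a mitochondrial relative, by -1.33 (SE 0.15). Splicing factors rose in 3 and fell in 13 of 36, or 5 and 7 with median scaling. Srsf10 changed by -1.64 (SE 0.29) and Snrpd3, a core snRNP protein gene, by -1.15 (SE 0.13). Ribosome biogenesis genes rose in 1 and fell in 9 of 24, or 2 and 5 with median scaling. Ncl, the nucleolin gene, had 6.56, 5.57 and 6.80 in HCC, against 8.28, 7.56 and 7.75 in normal hepatocytes, all HCC arrays below all normal arrays.

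Translation factor genes rose in 3 and fell in 6 of 28, with small changes, and rises outnumbered falls with cyclic loess and with the deposited normalized values. Pabpc1, the gene of the poly(A)-binding protein, changed by 1.21 (SE 0.18), and Eif2s3x, a subunit gene of initiation factor 2, by -0.90 (SE 0.19). Cytosolic tRNA synthetases rose in 4 and fell in 3 of 18, with Vars, which charges valine, at 1.60 (SE 0.20) and Cars, which charges cysteine, at 2.33 (SE 0.34), detected on 2 normal arrays.

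Amino acid transporters rose in 6 and fell in 2 of 14, with a median log2 change of 0.54, or 0.30 at the bounds. Slc1a4, a carrier gene for serine, alanine and cysteine, had 9.12, 9.32 and 9.59 in HCC, against 4.17, 4.29 and 4.56 in normal hepatocytes, at least 22.1-fold higher (adjusted p = 2.87e-07). Slc7a11, the cystine carrier gene of system xc-, had 7.85, 7.5 and 6.26 in HCC, against 4.35, 4.29 and 4.29 in normal hepatocytes, at least 5.02-fold higher, and HCC replicate 3 was lowest of the HCC arrays. Neither was detected on a normal array. Slc7a7, a carrier gene for cationic amino acids, changed by 2.59 (SE 0.22), detected on 2 normal arrays, and Slc16a10, a carrier gene of aromatic amino acids, by -1.81 (SE 0.26). The promoters of Slc1a4 and Slc7a11 are shown because both hold the letters of an amino acid response element, the site through which ATF4 acts on genes of amino acid supply. TGATGNAA, on either strand, stood in 2.33% of the windows of all tested genes, in 3.43% of those of genes higher by at least 2, in 3.12% of those of genes lower by at least 2, in 2.27% of those of all genes called higher and in 3.97% of all 32851 windows. Capitals mark it; RefSeq windows of GRCm38.p6 are given 5′ to 3′ along the gene.
Slc7a11 (chr3:50443564-50443863, minus strand): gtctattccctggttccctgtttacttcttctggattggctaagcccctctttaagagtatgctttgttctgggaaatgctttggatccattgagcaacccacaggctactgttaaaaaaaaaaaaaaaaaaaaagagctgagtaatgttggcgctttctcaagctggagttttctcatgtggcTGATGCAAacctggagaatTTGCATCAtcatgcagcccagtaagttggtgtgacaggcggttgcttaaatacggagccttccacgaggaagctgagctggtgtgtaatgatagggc
Slc1a4 (chr11:20332664-20332963, minus strand): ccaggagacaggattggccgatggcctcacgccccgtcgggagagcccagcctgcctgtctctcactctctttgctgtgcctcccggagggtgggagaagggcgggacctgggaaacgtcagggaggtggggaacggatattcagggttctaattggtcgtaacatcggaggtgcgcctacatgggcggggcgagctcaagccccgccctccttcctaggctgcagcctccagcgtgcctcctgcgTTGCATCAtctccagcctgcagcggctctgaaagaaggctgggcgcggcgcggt

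The list of serine, glycine and one-carbon enzymes had 3 rises and 7 falls among 16 genes. Psat1, the aminotransferase gene of serine synthesis, had 9.52, 9.94 and 9.19 in HCC, against 4.63, 5.55 and 4.64 in normal hepatocytes, detected on 1 normal array, and changed by 4.61 (SE 0.28). Phgdh, the first enzyme gene of that path, changed by 1.08 (SE 0.24), detected on 1 normal array, and the mitochondrial folate enzyme gene Aldh1l2 was the other rise. Gnmt, which disposes of methyl groups on glycine, had 13.11, 13.43 and 11.73 in HCC, against 14.89, 14.89 and 14.89 in normal hepatocytes, and Dmgdh, which oxidizes dimethylglycine, changed by -2.48 (SE 0.19). Aldh1l1, the cytosolic folate enzyme gene, changed by -1.65 (SE 0.31). All HCC arrays of Gnmt were below the normal arrays, on each of which its probe ranked 45th of 45281, so that quantile normalization gave the normal arrays 1 common value and their lack of spread is no measure of precision.

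Nucleotide genes rose in 4 and fell in 11 of 31. Falls took in both synthesis and breakdown. Paics and Ppat, enzyme genes of purine synthesis, had 6.01, 5.61 and 5.61 in HCC, against 8.45, 8.33 and 7.91 in normal hepatocytes for Paics and 6.93, 6.68 and 6.33 in HCC, against 8.28, 8.84 and 8.60 in normal hepatocytes for Ppat. Dpyd and Upb1, which break down pyrimidines, changed by -2.55 (SE 0.18) and -1.29 (SE 0.16), and the uridine phosphorylase gene Upp2 by -3.37 (SE 0.72). The median of the list was -0.19 and turned to 0.06 with median scaling. Of 7 polyamine enzyme genes 1 rose and 2 fell, and this balance turned with median scaling and with cyclic loess. Smox, the spermine oxidase gene, had 8.48, 8.09 and 8.59 in HCC, against 5.59, 5.35 and 5.45 in normal hepatocytes, a change of 2.92 (SE 0.18).

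Genes of mitochondria, listed with some cytosolic enzyme genes such as Mdh1 and Me1, were lower. Of 26 genes of the tricarboxylic acid cycle and pyruvate entry 0 rose and 19 fell, with a median log2 change of -0.74. With median scaling 0 rose and 11 fell. Mdh1, the cytosolic malate dehydrogenase gene, had 7.94, 7.87 and 6.83 in HCC, against 9.97, 9.58 and 9.45 in normal hepatocytes, and Fh1, the fumarase gene, had 10.66, 11.68 and 9.85 in HCC, against 11.97, 12.02 and 12.40 in normal hepatocytes. HCC replicate 3 was lowest in both genes. Pdhb, a pyruvate dehydrogenase subunit gene whose probes disagreed, changed by -1.46 (SE 0.28), Me1, the cytosolic malic enzyme gene, by -1.38 (SE 0.41) and Suclg2, a succinyl-CoA ligase subunit gene, by -1.22 (SE 0.23). Me1 did not pass without HCC replicate 3 (-0.94, adjusted p = 0.064) or normal hepatocytes replicate 1 or 2 (-1.23 and -1.22, adjusted p = 0.0568 and 0.0571). Mitochondrial ribosome and import genes rose in 0 and fell in 23 of 39, with a median of -0.53. Timm9, a chaperone gene of the intermembrane space, had 9.39, 9.40 and 9.10 in HCC, against 11.45, 11.02 and 11.13 in normal hepatocytes, and Mrps22, a ribosomal protein gene, changed by -1.30 (SE 0.19). Mitochondrial carriers rose in 0 and fell in 12 of 27. Slc25a13, the aspartate and glutamate carrier gene, changed by -1.92 (SE 0.26), the ornithine carrier gene Slc25a15 by -2.03 (SE 0.24) and Slc25a25, an ATP-magnesium carrier gene, by -2.72 (SE 0.47). With median scaling 1 carrier rose, and with cyclic loess and the deposited normalized values 1 ribosome or import gene rose.

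Peroxisome biogenesis genes rose in 0 and fell in 10 of 17, with a median log2 change of -0.62; 1 rose and 9 fell with median scaling. Cat, the catalase gene, had 11.90, 11.76 and 10.82 in HCC, against 12.84, 12.84 and 12.80 in normal hepatocytes, and Pex11a, a peroxisome division gene, had 9.36, 9.23 and 8.91 in HCC, against 10.65, 10.38 and 10.89 in normal hepatocytes. Normal arrays were above all HCC arrays in both. Retinoid, vitamin and cofactor genes rose in 5 and fell in 11 of 25. Rdh9 changed by 2.96 (SE 0.56) and its relative Rdh16 by -2.05 (SE 0.32), and probes of this retinol dehydrogenase family may read copies. Kynu, an enzyme gene of tryptophan breakdown, changed by -1.90 (SE 0.21) and Pank1, which starts coenzyme A synthesis, by -1.91 (SE 0.29). Pentose phosphate genes rose in 2 and fell in 3 of 8, with H6pd, the dehydrogenase gene of the endoplasmic reticulum, at 0.92 (SE 0.20) and Taldo1, the transaldolase gene, at -0.78 (SE 0.22). The deposited normalized values turned this balance, with 3 higher and 2 lower.

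**Figure D4:**
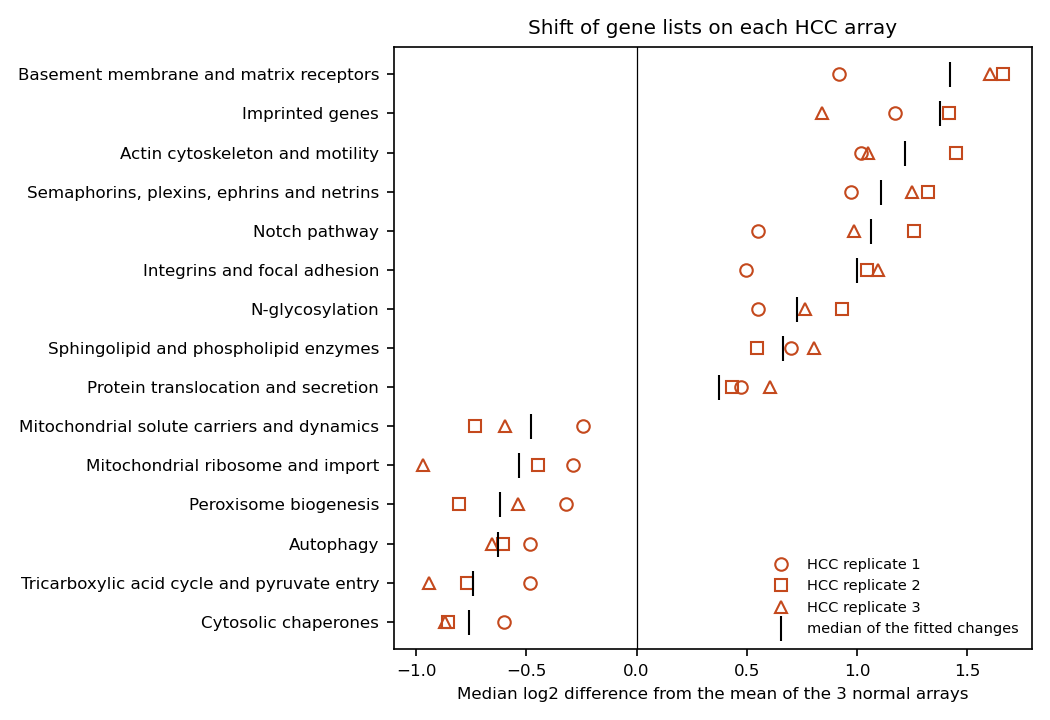
Median log2 difference of the members of 15 gene lists on each HCC array from the mean of the 3 normal arrays; symbols stand for HCC replicates 1 to 3 and bars for the median of the fitted changes. All 3 HCC arrays lie above 0 in the 9 upper lists and below 0 in the 6 lower lists.

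Sphingolipid and phospholipid enzymes rose in 15 and fell in 4 of 27, with a median log2 change of 0.66, or 0.61 at the bounds. Chka, the choline kinase gene that starts phosphatidylcholine synthesis, had 7.94, 8.47 and 8.99 in HCC, against 5.55, 4.34 and 5.37 in normal hepatocytes, detected on 2 normal arrays, and changed by 3.38 (SE 0.32). Smpd3, a neutral sphingomyelinase gene, was at least 7.23-fold higher, and Asah1, the lysosomal ceramidase gene, changed by 1.62 (SE 0.22). Lysosomal genes rose in 10 and fell in 2 of 27. Hexa, a subunit gene of beta-hexosaminidase, had 10.41, 10.72 and 10.63 in HCC, against 8.20, 8.95 and 8.62 in normal hepatocytes, and Lipa, the lysosomal acid lipase gene, changed by 1.70 (SE 0.20). Autophagy genes rose in 0 and fell in 13 of 22, with a median of -0.63; 0 rose and 8 fell with median scaling, and 1 rose with the deposited normalized values. Gabarapl1, the gene of an autophagosome membrane protein, had 9.69, 9.64 and 9.02 in HCC, against 11.49, 11.48 and 11.26 in normal hepatocytes, and Map1lc3a, of the same family, changed by -1.30 (SE 0.14). Atg3, the enzyme gene that attaches such proteins to lipid, changed by -1.56 (SE 0.19). Macrophage markers, whose cells are rich in lysosomes, summed to 10.55 to 11.45 in HCC and 8.68 to 9.58 in normal hepatocytes, and the part of these cells was not tested.

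Genes of the secretory path were higher at several steps. N-glycosylation genes rose in 22 and fell in 1 of 28, the largest share of rises among the 46 lists, with a median log2 change of 0.73. The first steps on the endoplasmic reticulum were among them: Alg2, a mannosyltransferase gene, changed by 1.83 (SE 0.30), Alg12, another, by 1.66 (SE 0.22) and Mogs, the first trimming glucosidase gene, by 1.63 (SE 0.22). So were steps in the Golgi. St6gal1, which adds sialic acid, had 13.11, 13.16 and 13.32 in HCC, against 11.34, 10.95 and 11.34 in normal hepatocytes, and Mgat5, which builds branched sugar chains, changed by 1.76 (SE 0.19), detected on 2 normal arrays. Man1a, a trimming mannosidase gene, was the member that fell, by -0.98. Translocation and secretion genes rose in 18 and fell in 3 of 39. Sec61a1, the gene of the translocation channel, had 10.28, 10.55 and 10.68 in HCC, against 9.06, 9.28 and 9.48 in normal hepatocytes, and Ssr2, beside that channel, changed by 1.33 (SE 0.18). Kdelr3, a retrieval receptor gene for escaped chaperones, had 8.07, 9.59 and 7.59 in HCC, against 4.44, 4.41 and 4.24 in normal hepatocytes, at least 11.6-fold higher, or 7.74-fold without HCC replicate 2.

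Rab GTPase and membrane traffic genes rose in 6 and fell in 12 of 34, a balance that turned to 9 and 7 with median scaling. Rab3d, a GTPase gene of regulated secretion, had 10.01, 10.26 and 10.57 in HCC, against 6.69, 7.08 and 6.72 in normal hepatocytes, and Rab31 changed by 2.40 (SE 0.27). Rab5a and Rab18, of early endosomes and lipid droplets, changed by -1.16 (SE 0.21) and -1.16 (SE 0.17). Ubiquitin and proteasome genes rose in 2 and fell in 11 of 26, or 5 and 6 with median scaling. Fbxo31, a ligase subunit gene, changed by -2.27 (SE 0.16) and Ube2n, a conjugating enzyme gene, by -1.41 (SE 0.18).

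Cytosolic chaperones fell together. Of 28 genes 1 rose and 19 fell, with a median log2 change of -0.76; with median scaling 1 rose and 14 fell. Hsph1, the gene of a large Hsp70 relative that recharges Hsp70, had 7.65, 8.16 and 8.64 in HCC, against 11.22, 10.56 and 10.47 in normal hepatocytes, a change of -2.60 (SE 0.26). Hspa1b, the inducible Hsp70 gene, had 5.06, 5.59 and 4.92 in HCC, against 9.0, 7.14 and 7.12 in normal hepatocytes, and its probe may read the near-identical Hspa1a. Hspb1, a small heat shock protein gene, had 5.86, 6.88 and 6.28 in HCC, against 9.33, 8.38 and 7.56 in normal hepatocytes. In all 3 genes every normal array was above every HCC array, with normal hepatocytes replicate 1 highest. Hsp90aa1, the inducible Hsp90 gene, changed by -1.73 (SE 0.35). Serpinh1, the collagen chaperone gene of the endoplasmic reticulum, was the member that rose, by 2.97.

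The promoters of these 3 genes are shown because the heat shock element was frequent in the list. GAANNTTC, a palindrome and so the same on either strand, stood in 12 of 31 windows of 23 chaperone genes (38.7%), in 5.87% of the windows of all tested genes and in 7.86% of all 32851 windows. Genes of this list are known targets of heat shock factor. Genes lower by at least 2 on the log2 scale held the letters in 8.12% of windows. Those windows include the ones of Hsph1, Hspa1b and Hspb1, so this share is not a separate result. Capitals mark GAANNTTC; windows are RefSeq's of GRCm38.p6, 5′ to 3′ along the gene, and Hsph1 has a second, overlapping window with the same match.
Hsph1 (chr5:149636287-149636586, minus strand): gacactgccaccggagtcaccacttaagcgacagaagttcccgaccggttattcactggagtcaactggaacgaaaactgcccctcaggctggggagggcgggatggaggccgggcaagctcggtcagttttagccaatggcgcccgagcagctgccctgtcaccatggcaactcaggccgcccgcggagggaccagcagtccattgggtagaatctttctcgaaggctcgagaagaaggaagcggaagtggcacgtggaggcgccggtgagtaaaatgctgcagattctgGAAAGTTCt
Hspa1b (chr17:34959189-34959488, minus strand): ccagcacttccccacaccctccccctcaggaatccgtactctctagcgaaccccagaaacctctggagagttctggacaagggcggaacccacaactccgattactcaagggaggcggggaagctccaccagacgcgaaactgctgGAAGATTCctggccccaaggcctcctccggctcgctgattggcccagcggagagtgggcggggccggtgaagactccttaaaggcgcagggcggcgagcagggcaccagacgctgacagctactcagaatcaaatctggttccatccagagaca
Hspb1 (chr5:135887669-135887968, plus strand): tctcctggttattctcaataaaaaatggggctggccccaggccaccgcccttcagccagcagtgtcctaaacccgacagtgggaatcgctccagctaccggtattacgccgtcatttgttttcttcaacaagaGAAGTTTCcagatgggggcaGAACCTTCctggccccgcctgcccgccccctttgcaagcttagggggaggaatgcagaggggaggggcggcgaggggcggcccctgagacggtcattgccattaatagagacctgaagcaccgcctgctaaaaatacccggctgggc

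Other carriers and channels changed in both directions. ABC transporters rose in 6 and fell in 2 of 18. Abcc4, an export pump gene for bile acids and cyclic nucleotides, had 8.92, 11.40 and 9.2 in HCC, against 5.22, 5.19 and 4.34 in normal hepatocytes, detected on 2 normal arrays, with HCC replicate 2 highest. Aquaporins and gap junction genes rose in 5 and fell in 0 of 11, with Aqp1, the water channel gene of endothelium and bile ducts, at 2.03 (SE 0.37) and Panx1, a membrane channel gene, at least 4.12-fold higher. Of 16 metal and ion transporters 4 rose and 5 fell, a balance that turned to 7 and 3 with median scaling, 5 and 4 with cyclic loess and 5 and 3 with the deposited normalized values. Slc39a4, a zinc importer gene, had 12.91, 12.93 and 12.50 in HCC, against 9.62, 10.70 and 9.78 in normal hepatocytes, and Slc30a10, a manganese exporter gene, changed by -2.04 (SE 0.48). Among 7 glucose and monocarboxylate carriers 2 rose and 0 fell. Slc2a1, the GLUT1 gene, had 8.75, 9.72 and 9.57 in HCC, against 7.27, 8.32 and 7.95 in normal hepatocytes, without overlap.

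Seen by detection alone, 692 genes (6.50%) were detected on all HCC arrays and no normal array, and 49 (0.460%) the other way round. Array-wide detection was also higher in HCC, as given above. After Eif4ebp3 and Elovl3, the largest bounds in favour of normal hepatocytes were those of Car1, the carbonic anhydrase 1 gene, with 4.49, 4.55 and 4.42 in HCC, against 7.94, 7.89 and 7.73 in normal hepatocytes (at least 9.5-fold lower), and Cabyr, a calcium-binding gene known from sperm (at least 5.72-fold lower). Jaml, an adhesion gene of leukocytes, had 4.38, 4.46 and 4.29 in HCC, against 5.13, 8.48 and 7.69 in normal hepatocytes, at least 5.64-fold lower, and normal hepatocytes replicate 1 was near background; the bound was 11.2-fold without that array and 3.49-fold without normal hepatocytes replicate 2. Slco1a1, an uptake carrier gene of male liver, was at least 3.73-fold lower, Sntg2 at least 4.28-fold and Asic5, an ion channel gene, at least 3.78-fold.

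Of 2 red cell markers tested both fell. Alas2, the first enzyme gene of haem synthesis in red cell precursors, had 8.62, 8.13 and 7.01 in HCC, against 11.22, 11.30 and 11.07 in normal hepatocytes, and Klf1, a red cell transcription factor gene, changed by -1.20 (SE 0.22). Haemoglobin genes, looked at after their values were seen, ran the other way. Hbb-bs had 8.50, 11.73 and 12.81 in HCC, against 6.68, 6.83 and 8.10 in normal hepatocytes and Hba-a1 had 7.61, 11.05 and 12 in HCC, against 6.16, 5.55 and 7.49 in normal hepatocytes, where HCC replicates 2 and 3 were high and HCC replicate 1 was close to normal hepatocytes replicate 3. Log2 changes were 3.81 (SE 0.85) for Hbb-bs and 3.82 (SE 0.90) for Hba-a1, and globin probes may read copies.

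The HCC arrays differed among themselves in a small number of genes. HCC replicate 2 was at least 2 above both other HCC arrays, on the log2 scale, in 27 genes and at least 2 below both in 3. HCC replicate 3 was above in 12 and below in 24, and HCC replicate 1 above in 5 and below in 6. The largest range among HCC arrays was that of Igf2, given above. Mmd2, a membrane receptor family gene, had 7.45, 10.69 and 5.21 in HCC, against 7.34, 8.52 and 9.12 in normal hepatocytes, and Gstp2, a glutathione transferase gene whose probe may read copies, had 10.08, 11.94 and 6.89 in HCC, against 8.75, 9.68 and 8.29 in normal hepatocytes. Both were highest on HCC replicate 2 and lowest on HCC replicate 3, around the normal level. Ctse, the cathepsin E gene, had 11.95, 12.86 and 7.97 in HCC, against 10.87, 11.07 and 11.68 in normal hepatocytes, and Xlr4a, an X-linked lymphocyte-regulated gene, had 11.02, 6.83 and 6.15 in HCC, against 8.04, 8.09 and 7.48 in normal hepatocytes, where HCC replicate 1 stood alone. These 4 genes were not called, since the HCC arrays lay on both sides of the normal arrays.

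Other genes with a large range within HCC had calls. Cyp4a12a, a fatty acid hydroxylase gene of male liver whose probe may read copies, had 10.55, 10.29 and 5.87 in HCC, against 12.42, 13.07 and 12.61 in normal hepatocytes, and Car3, the carbonic anhydrase 3 gene, had 10.18, 10.44 and 7.13 in HCC, against 13.02, 12.97 and 13.14 in normal hepatocytes. HCC replicates 1 and 2 lay between replicate 3 and the normal arrays in both. The Cyp4a12a change was -2.29 without HCC replicate 3, against -3.80 with all arrays. Nnmt, which methylates nicotinamide, had 10.39, 12.47 and 8.03 in HCC, against 14.15, 13.98 and 14.06 in normal hepatocytes, with HCC replicate 3 lowest and HCC replicate 2 highest. Sult4a1, a sulphotransferase gene known from brain, had 9.42, 5.0 and 6.77 in HCC, against 4.34, 4.42 and 4.42 in normal hepatocytes, highest on HCC replicate 1 and at least 4.55-fold higher as a group. The fitted change of Sult4a1 was 2.67 with all arrays and 1.49 without HCC replicate 1 (adjusted p = 0.0358), and its bound was 2.01-fold without HCC replicate 1 and 9.29-fold without HCC replicate 2.

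**Figure D5:**
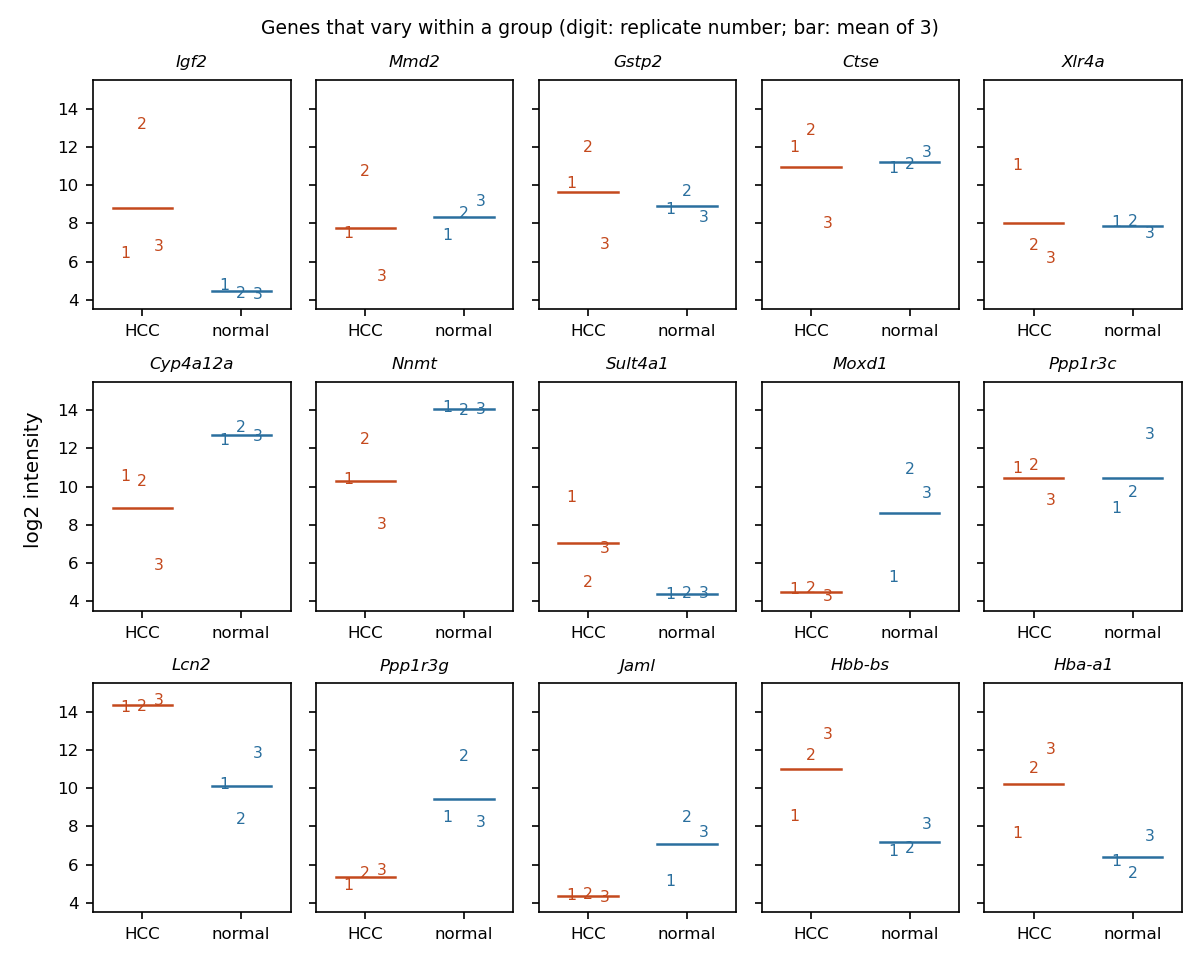
Log2 intensity on each array of 13 genes with the largest range within a group and of 2 haemoglobin genes, HCC left and normal hepatocytes right; digits are replicate numbers and bars the mean of 3 arrays. HCC replicate 2 stands alone in Igf2, HCC replicate 1 in Xlr4a and HCC replicate 3 in Ctse.

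Normal hepatocytes also varied. Normal hepatocytes replicate 1 was at least 2 above both other normal arrays in 7 genes and below in 4, replicate 2 above in 3 and below in 0, and replicate 3 above in 11 and below in 3. Ppp1r3c, another glycogen-targeting subunit gene, had 10.98, 11.10 and 9.30 in HCC, against 8.85, 9.71 and 12.75 in normal hepatocytes, and was not called. Lcn2, the lipocalin 2 gene of the acute phase, had 14.23, 14.27 and 14.60 in HCC, against 10.19, 8.37 and 11.83 in normal hepatocytes, where HCC arrays were tight and the normal arrays were widely spread. Its SD was 0.20 in HCC and 1.73 in normal hepatocytes. The fitted change of Lcn2 was 4.24 (SE 0.69), with an SE that pools the spread of all 4 groups of the study.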

How the data were processed

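Biotin-labelled total RNA was read on 12 bead arrays, per the labels' protocols. For every probe and array the deposited file holds a mean bead intensity, per its header. It also holds a detection p-value, per the file headers. Another deposited file has intensities that the authors normalized by a method not given in the sources used here. The signal was corrected with normexp from the detection p-values (offset 16), quantile normalized and taken to log2 (limma 3.58.1, R 4.3.3). Probes detected at p below 0.05 on at least 3 of 12 arrays were kept (19670). Probe genes came from the platform annotation, updated by gene ID through RefSeq of GRCm38.p6: of 45281 probes 34885 had 1 gene, 18 several and 10378 none listed, and 34807 IDs were found. The probe with the highest mean stood for a gene; 67 genes had probes called both ways, among those named Pdhb, Pdk1 and Slc6a6. A further 2911 unnamed probes were tested, with 572 higher and 655 lower.

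limma's lmFit and eBayes (2-sided) fitted 4 group means, with Benjamini-Hochberg adjustment over 10641 genes and calls at an adjusted p below 0.05. Groups came from the labels, and 0 columns stayed unmapped. Errors are moderated standard errors of log2 changes, with 3 arrays a group. Their spread is pooled over all 4 groups and drawn towards that of other genes. They can thus differ from the spread of the HCC and normal arrays alone. The number of arrays limits the precision. Members, lists and tests were chosen with earlier results of these data known. Named genes are the 24 largest rises and falls without overlap, up to 5 called members of each list (another list is not reported here), the largest ranges within a group (8 in HCC, 5 in normal hepatocytes) and the 8 largest bounds each way. Lcp1, Man1a, Plxna1, Efna5, Phgdh, Aldh1l2 and the haemoglobin genes were chosen after their values were seen. A simulation over 10641 genes gave a change to only a small part of them, with independent Gaussian noise. The fit called 68% of the genes given a log2 change of 1, and 93% of those given 2. Of its calls 3.59% were false. In the data 49.0% of genes were called, so these rates need not hold for this comparison. Alternatives changed the background correction, scaling, source of values, filter, probe rule, arrays fitted, array weights, replicate block and single arrays. Figures were drawn with matplotlib 3.10.9 (Python 3.11.15).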

Additional observations from a re-analysis of the deposited data

How the results depend on the processing

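The count of 5218 genes called stayed between 3810 and 5274 under median scaling, cyclic loess, no background correction, the authors' normalized values, the 6 arrays normalized or fitted alone, no filter, a stricter filter, the mean of a gene's probes, array weights and the replicate block. Median scaling left 1369 genes lower. Each probe by itself gave 7902 calls, 4385 lower, of 16759 tested. A log2 change of at least 1 added to the call left 2408 genes, 1412 higher and 996 lower, fewer by construction. Leaving out an array in turn gave 4410 to 5204 calls (2117 to 2466 higher, 2293 to 2738 lower). Of 305 log2 changes of named genes, between 288 (array weights) and 305 kept their direction and side of the threshold under each alternative. None reversed except on leaving out an array, among genes not called, whose cause was not tested: Ppp1r3c (0.02 with all arrays) ran from -0.78 without normal hepatocytes replicate 1 to 1.17 without replicate 3. Xlr4a ran from -1.38 without HCC replicate 1, where it passed the threshold, to 1.06 without HCC replicate 3, Gstp2 from -0.42 without HCC replicate 2 to 2.10 without HCC replicate 3, where it passed the threshold too, Mmd2 from -2.0 to 0.74 and Ctse from -1.25 to 1.2 without HCC replicates 2 and 3. With only the 6 arrays in the fit, Igf2, Dlk1, Sgk1, Sult4a1 and Taldo1 did not pass (adjusted p = 0.0591, 0.0856, 0.0622, 0.0512 and 0.0574). The difference in detected probes was 2851 at a detection p below 0.01.

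Same-numbered arrays are not paired by the labels, and their deviations from the group means correlated at -0.01, 0.12 and 0.10, with HCC replicate 1 closest to normal hepatocytes replicate 3. With the replicate block 3810 genes were called, 1940 higher and 1870 lower. Genes not well above background in normal hepatocytes have only a bound on their rise, and those undetected in HCC only a bound on their fall. Of 49 bounds on named genes, in either direction, 8 moved by over 1.5 times on leaving out 1 array. This check was chosen after seeing the data.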
